A study of Saccharomyces cerevisiae with 16 samples.

Results

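The data described here are the change in translational efficiency (TE) in yeast cells depleted of eIF3a and eIF3b, measured gene by gene from 8 of the 16 libraries of the series. TE is the number of ribosome footprints on a coding sequence relative to the number of mRNA reads on it, and its change was taken as the interaction of assay (footprints or mRNA) with strain (eIF3a/b Degron or WT). Genes with on average at least 32 reads in each of the 4 mRNA libraries were tested, which were 5306 of the 5647 genes in the count table. The genes described individually had in addition at least 100 footprints in each of the 4 footprint libraries, lay outside the RefSeq gene ontology groups for mitochondrial translation and for rRNA processing or ribosome biogenesis, and were neither TIF32 nor PRT1. These were 4161 genes, called well-counted genes below. The ontology groups are those of the RefSeq annotation file, and genes of these processes that it does not annotate with the terms remained among the well-counted genes.

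The libraries came from 2 cultures of eIF3a/b Degron cells and 2 cultures of WT cells of Saccharomyces cerevisiae, with a footprint library and an mRNA library from each. The eIF3a/b Degron strain carries PCUP1-UBI-R-HA-tif32td and PCUP1-UBI-R-DHFRts-HA-prt1td, each integrated with a URA3 marker, so that eIF3a (TIF32) and eIF3b (PRT1) are made from a copper-dependent promoter as fusions that are degraded at the restrictive temperature. The WT strain carries the plasmid pRS316 [URA3]. Both strains are MATa trp1Δ ura3-52 gcn2::hisG with a leu2 mutation and carry PGAL1-myc-UBR1::TRP1::ubr1, which puts the ubiquitin ligase Ubr1 under a galactose-dependent promoter. Both therefore lack Gcn2, the kinase that lowers initiation in amino acid starvation. Both were grown at 25 °C in raffinose medium with copper and moved for 90 minutes to 36 °C in raffinose and galactose medium with the copper chelator BCS, so the WT cultures went through the same heat, sugar and copper changes.

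eIF3 is the largest of the eukaryotic initiation factors. In yeast it binds the small ribosomal subunit, assists the recruitment of the initiator tRNA complex and the mRNA, and takes part in scanning to the start codon. eIF3a and eIF3b form the core to which the other subunits bind, so cells that lose them initiate poorly on mRNAs in general. Because the libraries hold no added standard, a TE change places an mRNA among all others in its cell: a higher TE means a larger share of the remaining ribosomes per mRNA, not more protein made. In bulk cultures such as these, a change in every cell and a change in some of the cells cannot be told apart.

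Library totals ranged between 6157260 and 6493910 footprints in eIF3a/b Degron cells and between 18160621 and 20768634 in WT cells. The mRNA totals ranged between 6030299 and 6390720 reads in eIF3a/b Degron cells and between 9002332 and 10994187 in WT cells. The mutant footprint libraries were thus the shallower ones, and the minimum of 100 footprints was not even-handed: of the 949 tested genes under it, 600 fell short only in eIF3a/b Degron libraries, among them 298 with lower TE, and 31 fell short only in WT libraries, among them 30 with higher TE. The well-counted genes are therefore short of genes with strongly lowered footprints.

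As a check of the labels, TIF32 (RPG1 in RefSeq) had TE values of 0.236 and 0.248 in eIF3a/b Degron cultures and 1.00 and 1.01 in WT cultures, and PRT1 had 0.378 and 0.386 in eIF3a/b Degron cultures and 1.40 and 1.34 in WT cultures. The 5′ ends of both transcripts are engineered in the mutant, so these values describe the construct as well as its translation.

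Across the 5306 genes tested, 33.1% passed the threshold with lower TE in eIF3a/b Degron cells and 26.8% with higher TE (edgeR quasi-likelihood test, Benjamini-Hochberg adjusted p under 0.05). Of the 4161 well-counted genes, 1302 had lower TE (31.3%), 1227 had higher TE (29.5%) and 1632 did not pass. The direction of the many small changes depends on how the libraries are scaled, because the zero point is arbitrary. The median TE change of all genes was -0.04 on the log2 scale with TMM factors over all 8 libraries, 0.10 with TMM factors taken within each assay and 0.28 with library size alone. With TMM within each assay, 992 well-counted genes had lower TE and 1605 had higher TE. Of the calls among all genes tested, 42.9% were lower with this scaling and 55.3% with TMM over all 8 libraries. Under all 4 scalings, which include the size factors of DESeq2, 658 of the 1302 lower genes and 1158 of the 1227 higher genes kept their call. The medians of gene lists are for this reason also set against the all-gene median.

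The changes were mostly moderate. Among the lower well-counted genes, 661 fell at least 1.5-fold, 210 at least 2-fold and 8 at least 4-fold. Among the higher ones, 624 rose at least 1.5-fold, 170 at least 2-fold and 8 at least 4-fold. The median standard error of a TE change was 0.12 on the log2 scale. The TE values of the strains did not overlap in 1299 of the 1302 lower genes and 1222 of the 1227 higher genes. These genes were called on the same counts, so this separation is largely built in. Its share over all genes tested is not given here.

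Footprint and mRNA changes combined in different ways to give these calls. mRNA levels themselves were lower in 30.8% of the genes tested and higher in 44.3%, and footprints were lower in 41.3% and higher in 41.8%. Of the 1302 lower genes, 519 had lower mRNA and still lower footprints, 301 had lower footprints with no mRNA call, 210 had lower footprints although their mRNA rose, 167 had higher mRNA with no footprint call, 95 had higher mRNA with a smaller rise in footprints, and 10 had neither called. Of the 1227 higher genes, 738 had higher mRNA and still higher footprints and 288 had higher footprints with no mRNA call, whereas 42 had higher footprints although their mRNA fell. The remaining ones were 88 with a smaller fall in footprints than in mRNA, 65 with lower mRNA and no footprint call, and 6 with neither called. Genes whose mRNA rose had a median TE change of 0.13, those with no mRNA call 0.04, and those whose mRNA fell -0.20. TE change and mRNA change share the mRNA counts, which by itself ties them with a negative sign. Over the well-counted genes the Pearson correlation of these changes was 0.21, given as a description across genes.

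**Figure D1:**
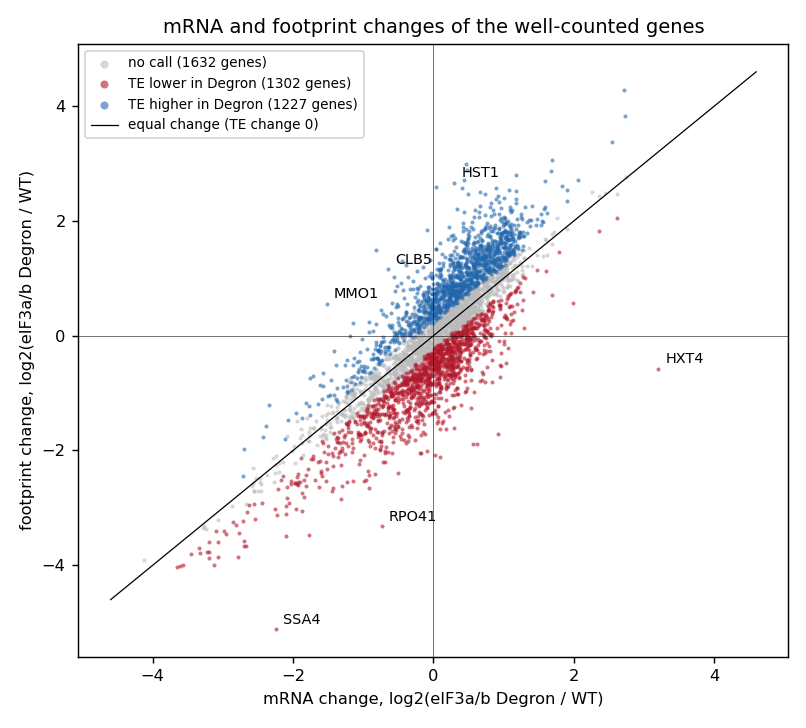
Each point is a well-counted gene, with its mRNA change on the x axis and its footprint change on the y axis, both as log2 of eIF3a/b Degron over WT. Red genes (1302) had lower TE and blue genes (1227) higher TE, and the diagonal marks equal change in both assays; HXT4 lies far below it on the side of raised mRNA, and SSA4 at the lowest footprint change.

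Among the well-counted genes past the threshold with both cultures of a strain on the same side, the 10 with the largest lowering include genes for sugar transport, a chaperone, a transcription factor, a kinase and 2 mitochondrial proteins. The hexose transporter genes HXT4 and HXT1 were both among them. HXT4 TE was 0.320 and 0.348 in eIF3a/b Degron cultures against 4.69 and 4.46 in WT cultures, with an mRNA change of 3.21 and a footprint change of -0.57. HXT1 TE was 2.04 and 2.36 in eIF3a/b Degron cultures against 14.5 and 10.3 in WT cultures, on few mRNA reads (115 and 86 against 88 and 142). HXT1 shares 10.62% of its 28-base windows with other HXT genes, so its reads may be split among them.

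SSA4 encodes the heat-inducible cytosolic Hsp70. It had 212 and 211 footprints in eIF3a/b Degron cultures against 20240 and 17919 in WT cultures, and 467 and 589 mRNA reads against 3683 and 4846. The log2 change was -2.24 in mRNA and -5.11 in footprints, which leaves a 7.29-fold lower TE (log2 change -2.87, SE 0.14, adjusted p = 2.24e-13).

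RPO41, the mitochondrial RNA polymerase, had TE values of 0.121 and 0.110 in eIF3a/b Degron cultures against 0.690 and 0.699 in WT cultures (log2 change -2.59). PAM18, a J-protein of the inner-membrane import motor, had 0.478 and 0.705 in eIF3a/b Degron cultures against 2.19 and 2.16 in WT cultures. The PAM18 change was -2.18 without one eIF3a/b Degron culture and -1.62 without the other, so its size rests on which culture is read, while its direction does not.

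PEP1, the Golgi sorting receptor for carboxypeptidase Y, had TE values of 0.0929 and 0.116 in eIF3a/b Degron cultures against 0.602 and 0.589 in WT cultures. CLG1, a cyclin-like protein that binds the kinase Pho85, had 0.0467 and 0.0441 in eIF3a/b Degron cultures against 0.288 and 0.275 in WT cultures. KNS1, a LAMMER-family protein kinase, had 0.214 and 0.167 in eIF3a/b Degron cultures against 0.723 and 0.702 in WT cultures. All 3 genes had more mRNA in eIF3a/b Degron cells and fewer footprints. TYE7, a transcriptional activator of glycolytic genes, had TE values of 0.449 and 0.454 in eIF3a/b Degron cultures against 2.04 and 2.12 in WT cultures. YRA1, an mRNA export adaptor, had 0.947 and 0.829 in eIF3a/b Degron cultures against 3.69 and 3.89 in WT cultures, and neither of these last genes had an mRNA call. YRA1 has an intron that lies within its counted region.

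**Figure D2:**
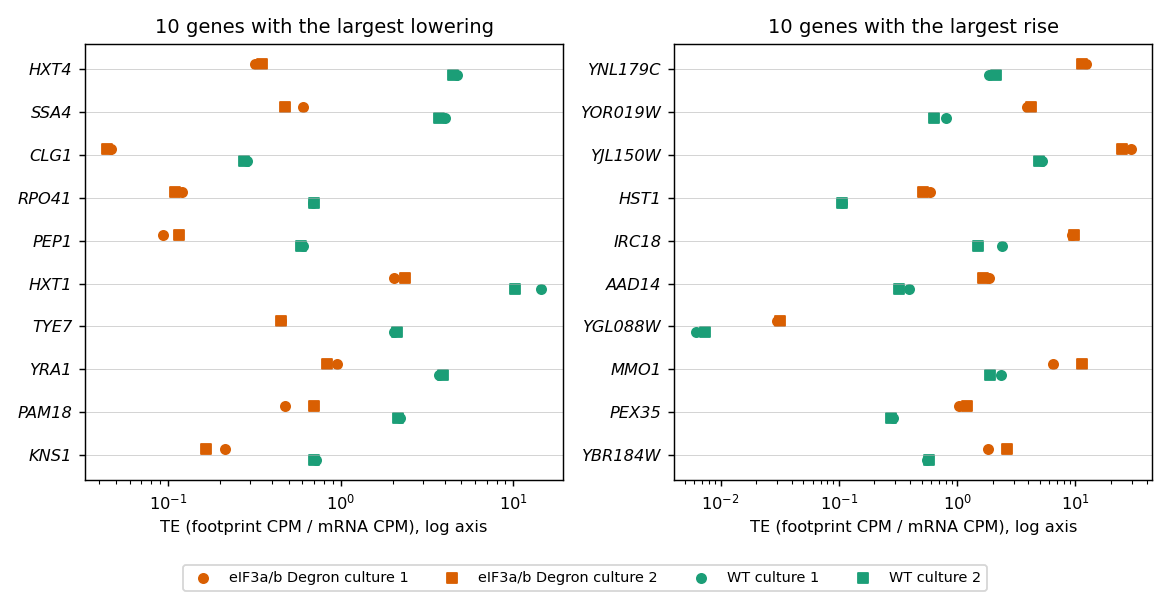
TE of each culture, as footprint CPM over mRNA CPM on a log axis, for the 10 well-counted genes with the largest lowering (left) and the largest rise (right). Orange symbols are eIF3a/b Degron cultures and green symbols WT cultures, circles culture 1 and squares culture 2. Only genes with the strains apart were eligible for the figure. HXT4 is at 0.320 and 0.348 in eIF3a/b Degron cells and 4.69 and 4.46 in WT cells.

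The 10 genes with the largest rise include 3 that RefSeq describes as uncharacterized and 2 that its annotation does not hold. HST1, a Sir2-family histone deacetylase, had a TE of 0.592 and 0.516 in eIF3a/b Degron cultures against 0.106 and 0.107 in WT cultures, a 5.17-fold rise (log2 change 2.37, SE 0.13, adjusted p = 2.55e-12). PEX35, a peroxisomal membrane protein, had 1.04 and 1.21 in eIF3a/b Degron cultures against 0.287 and 0.278 in WT cultures. AAD14, a putative aryl-alcohol dehydrogenase, had 1.87 and 1.66 in eIF3a/b Degron cultures against 0.395 and 0.324 in WT cultures, and shares 23.73% of its 28-base windows with its paralogs. In all 3 genes footprints rose by more than 2.4 on the log2 scale, with mRNA changes of 0.29, 0.50 and 0.43.

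The remaining risers were YOR019W (2.52), IRC18 (2.30), YGL088W (2.18), MMO1 (2.08) and YBR184W (1.93), and the unannotated reading frames YNL179C (2.56) and YJL150W (2.42). YGL088W is an extreme of another kind. It had 23589 and 20486 mRNA reads in eIF3a/b Degron cultures against 24962 and 31607 in WT cultures, but only 535 and 492 footprints against 213 and 233, so that its TE was 0.0300 and 0.0317 in eIF3a/b Degron cultures and 0.0062 and 0.0074 in WT cultures. Overlaps were sought only among coding sequences, so whether reads at YGL088W come from a non-coding RNA was not checked. The IRC18 and MMO1 values rest on few mRNA reads. IRC18 had 18 and 21 in eIF3a/b Degron cultures against 50 and 67 in WT cultures. MMO1 had 33 and 28 in eIF3a/b Degron cultures against 118 and 180 in WT cultures.

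The sequence around the start codon is shown for the 5 annotated genes with the largest change in each direction, because the base 3 before the start codon is part of the context that scanning ribosomes read. Each window runs over the 12 bases before the start codon to 3 bases after it, 5′ to 3′ on the coding strand. The sequences are from RefSeq (R64), and the capitals mark the base at -3 and the ATG. The first 5 had lower TE and the last 5 higher TE in eIF3a/b Degron cells.
HXT4, chrVIII:288806-288823, minus strand: aatctgccaAaaATGtct
SSA4, chrV:364577-364594, plus strand: aaaacaataAtcATGtca
CLG1, chrVII:87969-87986, plus strand: cttcatataGaaATGgct
RPO41, chrVI:58770-58787, plus strand: tattcactcAatATGctg
PEP1, chrII:191578-191595, minus strand: tcatcacacGttATGata
YOR019W, chrXV:368115-368132, plus strand: ccttaaattAttATGatt
HST1, chrXV:201874-201891, minus strand: aaaaaaatcTaaATGaac
IRC18, chrX:376650-376667, plus strand: caaaactatAagATGaaa
AAD14, chrXIV:17243-17260, minus strand: ccactattcAgcATGact
YGL088W, chrVII:345824-345841, plus strand: taccgttttAcaATGcat
All 5 lower genes had A or G at -3, and of the 5 higher genes HST1 had T there and the other 4 had A. The shares over all well-counted genes are given further below.

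In some genes mRNA and footprints moved past the threshold in opposite directions. Of the well-counted genes, 210 had higher mRNA and lower footprints and 42 had lower mRNA and higher footprints. The 5 with the largest fall in TE were HXT4, CLG1, PEP1, HXT1 and KNS1. On the other side stood IRC18, MMO1, CLB5, AUS1 and ELF1. CLB5, the S-phase B-type cyclin, had 316 and 349 footprints in eIF3a/b Degron cultures against 411 and 365 in WT cultures, from shallower libraries, and 180 and 134 mRNA reads against 370 and 465. Its TE was 2.33 and 3.44 in eIF3a/b Degron cultures and 0.813 and 0.787 in WT cultures (log2 change 1.81, SE 0.17, adjusted p = 4.66e-09). AUS1, a plasma membrane sterol importer, had TE values of 0.947 and 1.07 in eIF3a/b Degron cultures against 0.286 and 0.314 in WT cultures. ELF1, a transcription elongation factor, had 3.58 and 3.06 in eIF3a/b Degron cultures against 1.11 and 1.08 in WT cultures.

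Pathways were described with 51 lists of genes, leaving out the genes of the 2 ontology groups named above. Each list is given by how many of its tested genes had lower and higher TE, beside 33.1% and 26.8% of all genes tested, and by its median. The lowest and highest genes named for a list are only from its well-counted genes past the threshold. Tested genes of the list that were not well counted may lie beyond them. The median lay below that of all genes in 36 lists and above it in 15. It kept its side of the median of all genes under all 4 scalings in every list. A scaling moves the TE change of all genes nearly alike, so this outcome was close to fixed. Leaving out a culture did move some lists near the median of all genes across it. Without eIF3a/b Degron culture 1 the Mediator median relative to all genes was 0.07, against -0.0048 with both. Without culture 2 that of cyclins and Cdk control was 0.0092, against -0.04 with both. In 12 lists lower genes outnumbered higher ones under all 4 scalings, in 13 lists the reverse held, and in 26 the larger direction turned or tied under at least one scaling.

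**Figure D3:**
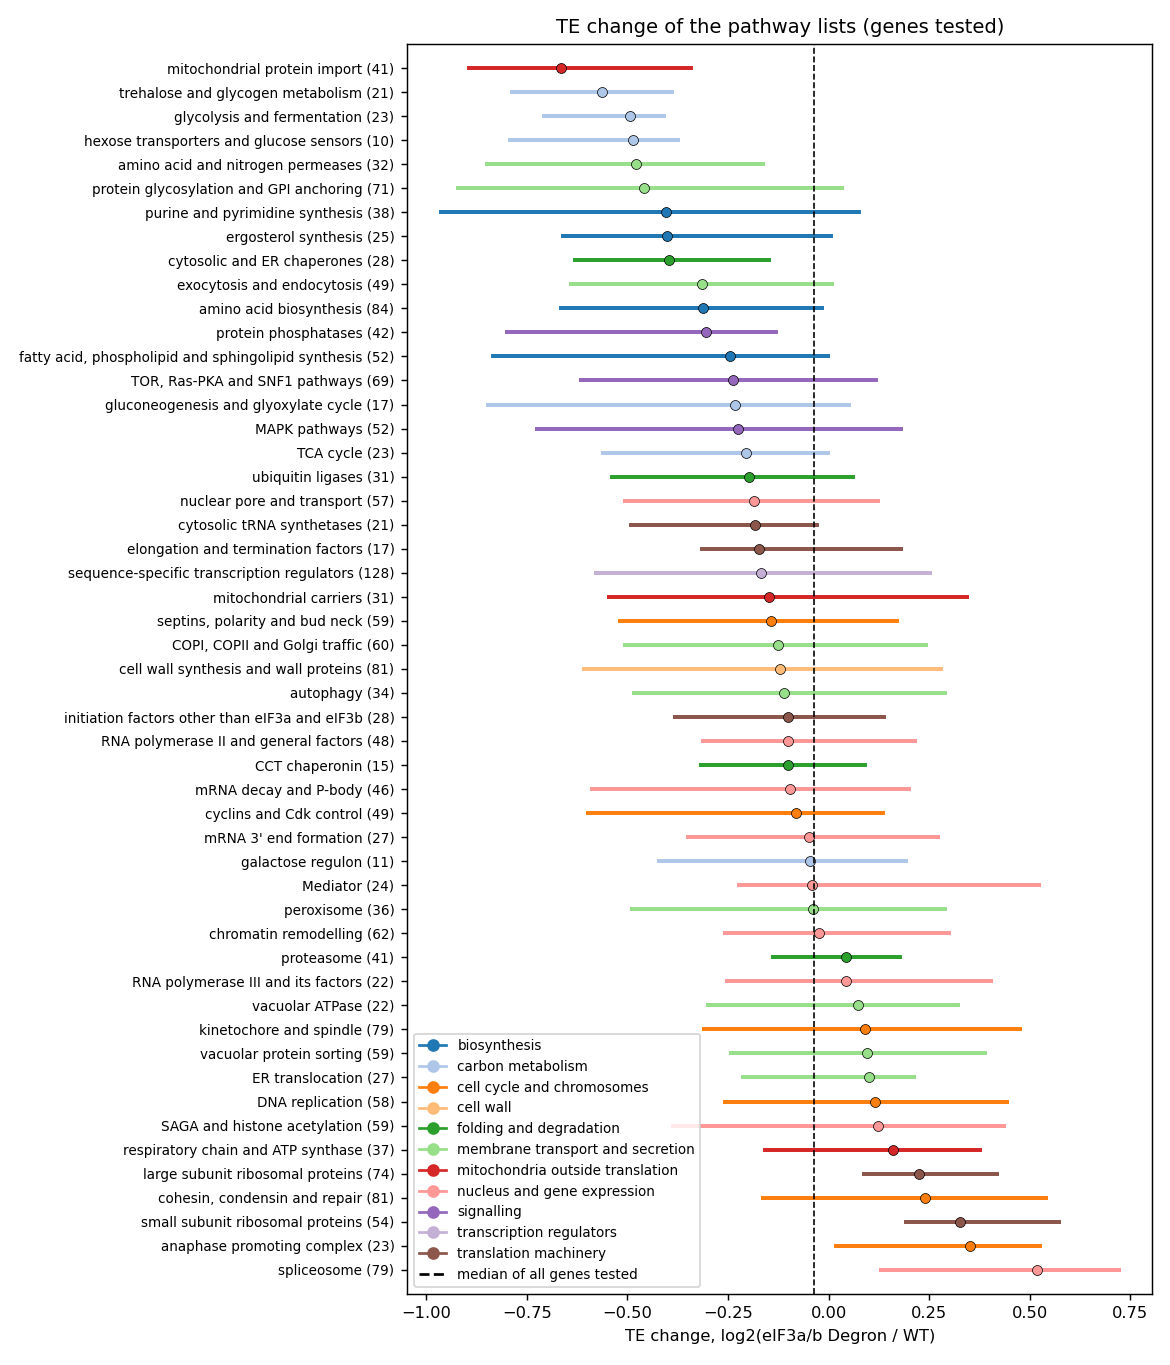
Median TE change (points) and quartiles (bars) of the 51 gene lists, as log2 of eIF3a/b Degron over WT, ordered by median and coloured by group, with the number of genes tested in brackets. The dashed line is the median of all genes tested, -0.04; mitochondrial protein import is lowest at -0.67 and the spliceosome highest at 0.52.

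Mitochondrial protein import had the lowest median of the 51 lists. These genes encode the TOM and TIM translocases, the import motor and the sorting machinery, through which nearly all mitochondrial proteins enter the organelle. Of 41 genes, 32 had lower TE (78.0%) and 1 had higher TE, MDM10 (0.54), and the list median was -0.67, which is -0.63 relative to all genes. The largest changes were those of PAM18 (-1.91), of TIM23, the channel of the presequence translocase, and of TIM44, which tethers Hsp70 to it. TIM23 TE was 0.922 and 0.960 in eIF3a/b Degron cultures against 2.55 and 2.45 in WT cultures, and TIM44 TE was 0.982 and 0.920 in eIF3a/b Degron cultures against 2.63 and 2.38 in WT cultures. TIM23 had no mRNA call, and the median mRNA change of the list was -0.63. With library size alone 20 genes of the list were lower and 7 higher.

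The other mitochondrial lists are given beside it, without a test of the difference. Respiratory chain and ATP synthase genes had 13 of 37 higher and 6 lower, with a median of 0.16, although their median mRNA change was -1.13. QCR6, a subunit of complex III, had TE values of 5.04 and 5.53 in eIF3a/b Degron cultures against 3.50 and 3.31 in WT cultures, and NDI1, the matrix-facing NADH dehydrogenase, had 1.02 and 0.924 in eIF3a/b Degron cultures against 1.82 and 1.92 in WT cultures. Inner-membrane carriers had 12 of 31 lower and 6 higher, between YHM2 (-0.98) and YEA6 (1.03), and with TMM within each assay 8 were lower and 9 higher. TCA cycle genes had 11 of 23 lower and 2 higher, a median of -0.21 and a median mRNA change of -1.56, and with library size alone 6 were lower and 8 higher. The lowest of the TCA cycle list was LAT1 (-0.70), a subunit of pyruvate dehydrogenase.

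Glycolysis was lowered at both levels. Of 23 glycolysis and fermentation genes, 21 had lower TE (91.3%) and none higher, with 10 lower and 1 higher under library size alone. The median mRNA change was -1.65 and the median footprint change -2.83. Without eIF3a/b Degron culture 1 their median relative to all genes was -0.59, against -0.46 with it. PFK2, a subunit of phosphofructokinase, had TE values of 0.958 and 0.927 in eIF3a/b Degron cultures against 1.75 and 1.72 in WT cultures. HXK2, a hexokinase, had 1.12 and 1.11 in eIF3a/b Degron cultures against 1.90 and 1.83 in WT cultures, and ADH3, the mitochondrial alcohol dehydrogenase, changed by -0.79. Each of these is below a 2-fold change. The share of 91.3% compares with 33.1% of all genes tested that were lower.

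Trehalose and glycogen genes, which handle the storage carbohydrates of yeast, were lower in 18 of 21 cases, with a median of -0.56, and in 8 cases with library size alone. PGM2, a phosphoglucomutase, had TE values of 1.24 and 1.30 in eIF3a/b Degron cultures against 2.61 and 2.35 in WT cultures, and its mRNA fell by 2.70 on the log2 scale. TPS3, of the trehalose synthase complex, changed by -0.89 and GDB1, the glycogen debranching enzyme, by -0.83. PIG2, a regulatory subunit for glycogen synthase phosphatase, was the single higher gene (0.42), and it did not pass the threshold without eIF3a/b Degron culture 2 or without WT culture 2. Among 10 hexose transporters and sensors 7 were lower and none higher (3 and 1 with library size alone). Only 6 of these 10 genes were well counted, and 15 of the 21 trehalose and glycogen genes. GAL2, the galactose permease, had TE values of 0.990 and 1.06 in eIF3a/b Degron cultures against 1.84 and 1.75 in WT cultures. Without eIF3a/b Degron culture 1 the median of these transporters relative to all genes was -0.25, and without culture 2 it was -0.66, against -0.45 with both.

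Gluconeogenesis and glyoxylate cycle genes had 8 of 17 lower and 3 higher, between ALD3 (-1.50) and MAE1 (0.52), and with library size alone 5 were lower and 5 higher. ALD3 and ALD2, which were both lowered, share 51.74% of their 28-base windows. The galactose regulon, the genes that galactose induces through Gal4, had 4 of 11 lower and 2 higher (3 and 6 with library size alone), with a median of -0.05 that is close to that of all genes, while its median mRNA change was -0.74. Its extremes were PGM2 (-0.97) and FUR4 (0.68).

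The biosynthetic lists had more lower than higher TE calls. Their median mRNA changes were above 0, beside 0.12 for all genes tested. Amino acid biosynthesis (0.07) and fatty acid, phospholipid and sphingolipid synthesis (0.04) lay below that value. Purine and pyrimidine synthesis had 23 of 38 lower and 6 higher, with a median of -0.40 and a median mRNA change of 0.29. URA6, the uridylate kinase, had TE values of 0.687 and 0.629 in eIF3a/b Degron cultures against 2.54 and 2.38 in WT cultures, and IMD4, an IMP dehydrogenase that shares sequence with its paralogs, changed by -1.57. ADE57, the bifunctional enzyme of purine synthesis, changed by -1.54. DCD1, the dCMP deaminase, was the highest at 0.64. Library size alone gave 17 lower and 11 higher purine and pyrimidine genes. Amino acid biosynthesis had 49 of 84 lower and 12 higher, with 24 and 20 under library size alone. The selection marker genes of the strains were not removed: LEU2 and TRP1, which are in the amino acid list, did not pass the threshold, and URA3 (-0.74), which is among the lower genes, is in no list. SHM1, the mitochondrial serine hydroxymethyltransferase, had TE values of 0.543 and 0.602 in eIF3a/b Degron cultures against 1.78 and 1.78 in WT cultures. CPA1, a subunit of carbamoyl phosphate synthetase whose mRNA carries a known regulatory upstream reading frame, had 0.375 and 0.333 in eIF3a/b Degron cultures against 1.10 and 1.09 in WT cultures. MET6, the methionine synthase, changed by -1.53, and at the other end ARO9, an aromatic aminotransferase, changed by 1.11.

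Ergosterol synthesis had 16 of 25 lower and 3 higher, although its median mRNA change was 0.49, and its median footprint change was 0.03. ERG4, the last enzyme of the pathway, had TE values of 0.445 and 0.524 in eIF3a/b Degron cultures against 1.22 and 1.15 in WT cultures. HMG1, an HMG-CoA reductase, had more mRNA (0.60) and fewer footprints (-0.24), with TE values of 0.254 and 0.220 in eIF3a/b Degron cultures against 0.409 and 0.438 in WT cultures. ERG5 was the highest of the pathway at 0.44. With library size alone, 10 of the ergosterol genes were lower and 9 higher. Fatty acid, phospholipid and sphingolipid synthesis had 26 of 52 lower and 6 higher. ACC1, the acetyl-CoA carboxylase, had TE values of 0.283 and 0.283 in eIF3a/b Degron cultures against 0.822 and 0.782 in WT cultures, and FAS1, a subunit of fatty acid synthase, changed by -1.32. FAA4, an acyl-CoA synthetase, was the highest at 0.54 and did not pass the threshold with DESeq2 or without WT culture 1.

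The chaperone and proteasome lists both had median mRNA changes below -1. Cytosolic and ER chaperones had a median mRNA change of -1.96 and lower TE in 19 of 28 genes, with 1 higher, SNL1 (0.93). Library size alone gave 9 lower and 5 higher chaperone genes. Besides SSA4, the largest changes were in ERO1, the ER thiol oxidase, with TE values of 0.632 and 0.580 in eIF3a/b Degron cultures against 1.25 and 1.28 in WT cultures, and in PDI1, the protein disulfide isomerase (-0.88). Proteasome genes had a median mRNA change of -1.16, and 9 of 41 had lower TE and 9 higher, with a median of 0.04. TMM within each assay gave 5 lower and 16 higher proteasome genes, and library size alone 4 and 28. RPN4, the transcription factor for these genes, which the list includes, was the lowest, with TE values of 0.587 and 0.527 in eIF3a/b Degron cultures against 1.11 and 1.12 in WT cultures, and NAS2, an assembly chaperone, the highest at 0.94. The chaperonin list, which also holds the prefoldin genes, had 5 of 15 lower and 3 higher, with 2 and 7 under library size alone. The lower ones included CCT5 (-1.10) and CCT6 (-0.95), subunits of the chaperonin, and the higher ones PAC10 (0.98) and YKE2 (0.70), subunits of prefoldin; YKE2 did not pass without WT culture 1. Ubiquitin ligases had 13 of 31 lower and 6 higher, with 7 and 9 under library size alone. The lowest of them was UBR1 (-1.01), which is driven by the galactose promoter in both strains, and the highest was SLX8 (0.84).

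**Figure D4:**
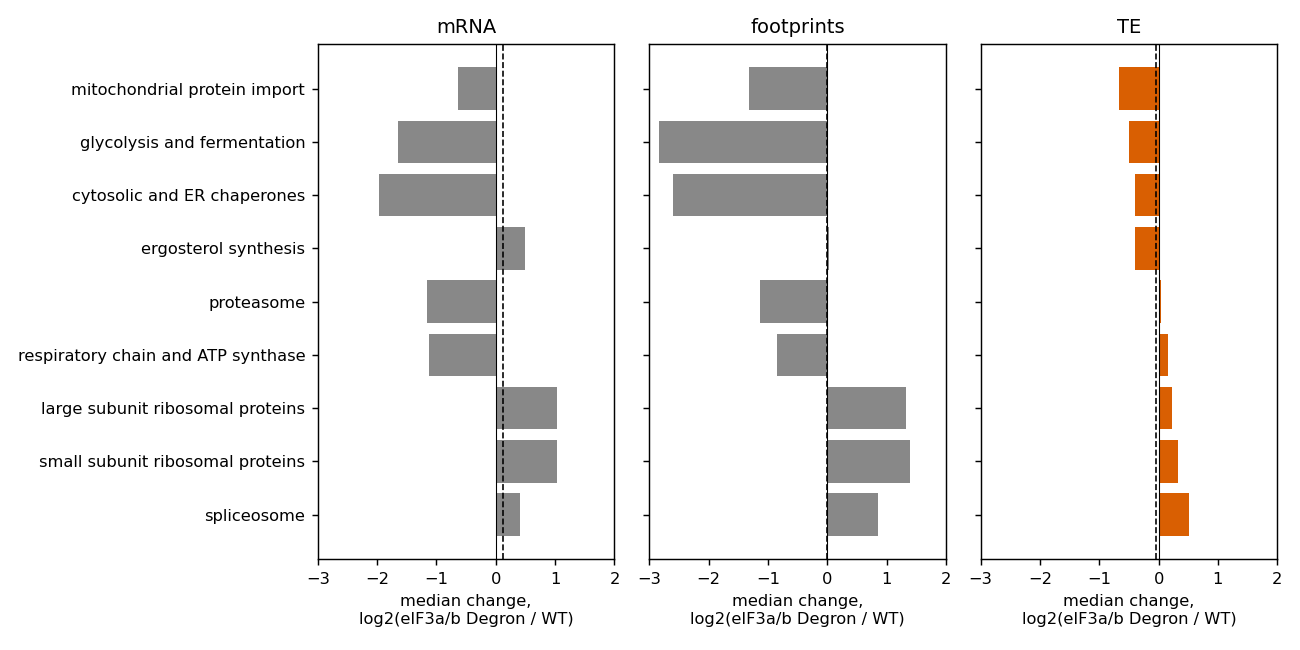
Median mRNA, footprint and TE change of 9 gene lists, as log2 of eIF3a/b Degron over WT, with bars from 0 and a dashed line at the median of all genes tested. Median mRNA of glycolysis, chaperone, proteasome and respiratory chain genes was lower by more than 1 on the log2 scale. Their median TE changes were -0.49, -0.40, 0.04 and 0.16.

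Of the membrane and secretion lists, permeases (median -0.48) and glycosylation had the lowest medians. Protein glycosylation and GPI anchoring had 42 of 71 lower and 11 higher, with a median of -0.46, and 28 and 17 under library size alone. MNN2, a Golgi mannosyltransferase, had TE values of 0.408 and 0.384 in eIF3a/b Degron cultures against 1.19 and 1.13 in WT cultures, with no mRNA call, and PMT2, a protein O-mannosyltransferase of the ER, changed by -1.54. GPI15 (1.22) and GPI18 (0.92), which act in the synthesis of the GPI anchor, rose. Amino acid and nitrogen permeases had 18 of 32 lower and 3 higher, among them TAT1 (-0.95) and CAN1, the arginine permease, with 0.385 and 0.443 in eIF3a/b Degron cultures against 0.836 and 0.745 in WT cultures. Only 15 of these 32 genes were well counted. Exocytosis and endocytosis had 25 of 49 lower and 2 higher, between EDE1 (-1.48), an early endocytic scaffold, and SNC1 (1.18), a vesicle SNARE, and with library size alone 13 were lower and 16 higher.

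ER translocation had 5 of 27 lower and 6 higher, with 4 lower and 18 higher under library size alone. The lower members included SSH1 (-0.84), a channel subunit related to SEC61. SEC61, the channel, had TE values of 0.588 and 0.635 in eIF3a/b Degron cultures against 1.35 and 1.24 in WT cultures, and the gene for the signal recognition particle receptor had 0.335 and 0.352 in eIF3a/b Degron cultures against 0.920 and 0.849 in WT cultures. SPC2, of the signal peptidase, was the highest (0.73). The vesicle coat and Golgi list had 25 of 60 lower and 11 higher, between SFB3 (-1.22), a COPII cargo adaptor, and BET5 (0.90), a TRAPP subunit. With TMM within each assay 18 of these were lower and 16 higher. Vacuolar protein sorting had 13 of 59 lower, led by PEP1, and 19 higher, led by VPS20 (1.04), an ESCRT-III subunit. The vacuolar ATPase had 7 of 22 lower and 6 higher, between STV1 (-1.11) and VMA22 (1.13), autophagy 11 of 34 lower and 8 higher, between ATG32 (-0.98) and ATG41 (1.22), and peroxisome genes 11 of 36 lower and 8 higher, between PCS60 (-0.88) and PEX4 (1.37). These shares are near those of all genes. Under library size alone higher genes outnumbered lower ones in each of these lists (5 lower and 14 higher, 6 and 11, 5 and 15). Cell wall genes had 30 of 81 lower and 16 higher, with 19 and 35 under library size alone, and their extremes were DSE2 (-1.67), a daughter-cell wall protein, and AGA2 (1.37), the adhesion subunit of a-agglutinin.

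Small subunit ribosomal proteins had 39 of 54 higher (72.2%) and 2 lower, and large subunit ribosomal proteins 39 of 74 higher (52.7%) and 5 lower, on top of median mRNA changes of 1.04 in both lists. RPS29A TE was 7.76 and 7.46 in eIF3a/b Degron cultures against 4.56 and 4.38 in WT cultures, and RPL39 TE was 10.3 and 9.66 in eIF3a/b Degron cultures against 5.27 and 4.79 in WT cultures. RPL41A (1.46) and RPL41B (1.47) were higher still but share 82.35% of their 28-base windows. ASC1, the scaffold protein that sits on the head of the small subunit, and RPS9B (-0.40), which did not pass with library size alone, were the lower genes of the small subunit. ASC1 mRNA rose by 1.68 on the log2 scale, and ASC1 TE was 0.642 and 0.704 in eIF3a/b Degron cultures against 1.27 and 1.37 in WT cultures. RPP1A, a stalk protein, was the lowest of the large subunit genes (-0.67). ASC1, RPL39 and many other ribosomal protein genes have introns, and in all 213 well-counted genes with an intron the counted length was the genomic span of the reading frame less 60 nt, introns included.

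Initiation factors other than eIF3a and eIF3b had 12 of 28 lower and 6 higher, with a median of -0.10. PAB1, the poly(A)-binding protein, had TE values of 0.820 and 0.791 in eIF3a/b Degron cultures against 2.05 and 1.93 in WT cultures, and TIF4632, an eIF4G, had 0.988 and 0.904 in eIF3a/b Degron cultures against 1.62 and 1.70 in WT cultures. NIP1, the eIF3c subunit, changed by -0.76. The highest was TIF11, which encodes eIF1A, with 4.38 and 4.23 in eIF3a/b Degron cultures against 2.50 and 2.48 in WT cultures, followed by SUI1 (0.47), which encodes eIF1. With TMM within each assay 7 of the 28 were lower and 9 higher. Elongation and termination factors had 7 of 17 lower and 4 higher, with 3 lower and 5 higher under TMM within each assay, and their median relative to all genes was -0.14, or between -0.24 and -0.0019 with each eIF3a/b Degron culture left out. EFT1 (-0.89) and EFT2 (-0.90), which encode the same eEF2 protein, share 95.52% of their 28-base windows. They are not separate measurements, although both are among the 7 lower genes. In the other lists, too, genes that share sequence were each counted. HEF3, a second eEF3 gene, was the highest (0.95). Cytosolic tRNA synthetases had 9 of 21 lower and 2 higher, between YHR020W (-1.04) and WRS1 (0.65), and with library size alone 5 were lower and 8 higher.

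The spliceosome had the highest median of the 51 lists. It had 51 of 79 higher (64.6%) and 6 lower, with a median of 0.52, a median mRNA change of 0.40 and a median footprint change of 0.85. BUD31 TE was 2.55 and 2.51 in eIF3a/b Degron cultures against 0.964 and 1.35 in WT cultures. SNT309 TE was 2.64 and 3.19 in eIF3a/b Degron cultures against 1.38 and 1.22 in WT cultures, and CWC2 TE was 1.19 and 1.18 in eIF3a/b Degron cultures against 0.516 and 0.605 in WT cultures. All 3 encode proteins of the Prp19-associated complexes that activate the spliceosome. The lowest member was SMX3 (-0.77), the Sm protein F, which did not pass with library size alone. With library size alone 62 spliceosome genes were higher and 2 lower.

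RNA polymerase II and its general factors had 15 of 48 lower and 10 higher, with the order turned under TMM within each assay (7 and 16). SUA7, which encodes TFIIB, had TE values of 0.343 and 0.390 in eIF3a/b Degron cultures against 1.28 and 1.25 in WT cultures, and RPO21, the largest subunit of the polymerase, had 0.192 and 0.190 in eIF3a/b Degron cultures against 0.466 and 0.454 in WT cultures. KIN28, the TFIIH kinase, was the highest (0.96). RNA polymerase III and its factors had 4 of 22 lower and 8 higher, between RPO31 (-0.95), again the largest subunit, and RET1 (0.68). Mediator had 3 of 24 lower and 8 higher, between RGR1 (-0.82) and SRB5 (0.81). SAGA and histone acetylation had 14 of 59 lower and 20 higher, between HFI1 (-0.95) and HST1, and chromatin remodelling 17 of 62 lower and 19 higher, between SET2 (-1.33) and IES4 (1.02).

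Nuclear pore and transport genes had 25 of 57 lower and 8 higher. Besides YRA1, the lower ones included the import receptor KAP95, with TE values of 0.405 and 0.392 in eIF3a/b Degron cultures against 0.938 and 0.941 in WT cultures, and PSE1 (-1.07), and the highest was MTR10 (0.57). With library size alone 13 of these were lower and 23 higher. mRNA decay and P-body genes had 18 of 46 lower and 7 higher, with PUF3 (-1.53), DHH1 (-1.11) and CCR4 (-1.02) at one end and EDC1 (0.84) at the other, and 16 of each under TMM within each assay. mRNA 3′ end formation had 10 of 27 lower and 8 higher, or 4 and 13 with library size alone, with PCF11, a cleavage factor subunit, the lowest and PFS2 (0.77) the highest. Sequence-specific transcription regulators had 53 lower (41.4%), 28 higher and 47 uncalled, with 40 lower and 36 higher under TMM within each assay and 28 and 49 with library size alone. At their extremes stood TYE7 and RPH1 (-1.33) on the lower side and ARR1 (1.41) and NDT80 on the higher side. NDT80, a meiotic activator, had TE values of 5.46 and 3.83 in eIF3a/b Degron cultures against 1.62 and 1.96 in WT cultures.

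Of the cell cycle and chromosome lists, 4 had more higher than lower genes. The anaphase promoting complex and spindle checkpoint list had 11 of 23 higher and 2 lower, with a median of 0.35, led by APC11, the RING subunit, with TE values of 3.43 and 4.12 in eIF3a/b Degron cultures against 1.72 and 1.98 in WT cultures. Neither of the 2 lower genes was well counted. Cohesin, condensin and repair had 31 of 81 higher and 15 lower, between RAD54 (-0.69) and SLX1 (1.84), a structure-specific nuclease subunit, with 3.68 and 3.90 in eIF3a/b Degron cultures against 1.07 and 1.03 in WT cultures. MEC3, of the checkpoint clamp, changed by 1.47. DNA replication had 20 of 58 higher and 13 lower, between RFC1 (-1.01) and SLD2 (1.20), and kinetochore and spindle 22 of 79 higher and 16 lower, between BIR1 (-1.07) and OKP1 (1.06). Cyclins and Cdk control had 20 of 49 lower and 9 higher, between NET1 (-1.49), the nucleolar anchor of the phosphatase Cdc14, and CLB5, with 12 lower and 21 higher under library size alone. Septins, polarity and bud neck genes had 24 of 59 lower and 12 higher, with 14 and 28 under library size alone, between STE20 (-1.08) and BUD5 (1.53). BUD5 overlaps a mating-type gene and shares 36.49% of its 28-base windows with another locus, so its value is uncertain.

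Protein phosphatases had 21 of 42 lower and 6 higher, or 14 and 8 with library size alone, with SAP155 (-1.57) and the catalytic subunits PPH21 (-1.44) and PPH22 (-1.57), which share sequence, at one end and RCN1 (0.84) at the other. MAPK pathways had 20 of 52 lower and 8 higher. HOG1, the osmotic stress MAP kinase, had TE values of 0.435 and 0.432 in eIF3a/b Degron cultures against 1.39 and 1.47 in WT cultures, and MSB2, a mucin-like osmosensor, had 0.156 and 0.163 in eIF3a/b Degron cultures against 0.489 and 0.498 in WT cultures. STE3, the a-factor receptor of the opposite mating type, was the highest (1.10). The TOR, Ras-PKA and SNF1 list had 27 of 69 lower and 15 higher, between REG1 (-1.14), a regulator of the phosphatase Glc7, and AVO2 (1.07), a TORC2 subunit. With library size alone the MAPK list had 15 lower and 16 higher, and the TOR list 18 and 22.

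Length, start-codon context and expression level are described for the well-counted genes with lower, uncalled and higher TE, without a test. The counted length, which is the reading frame without its first 15 and last 5 codons and with any intron, had a median of 1574 nt in lower genes, 1098 nt in uncalled genes and 960 nt in higher genes. In 5 length bins of equal size, the lower share was 14.9% in the shortest genes (18 to 641 nt), 18.9%, 33.3%, 41.4%, and 48.1% in the longest (2106 to 12219 nt), and the higher share ran the other way, 41.2%, 36.4%, 30.1%, 21.7% and 17.9%. The median TE change was 0.22 in the shortest bin and -0.24 in the longest. Without ribosomal proteins the medians were 1581 nt in lower genes and 1002 nt in higher genes, and without the genes that have introns, left out after the data were seen, 1585.5 nt and 1020.0 nt. WT mRNA level and WT TE come from the same counts as the minimum counts and the TE change, so the shares by these levels are a description only. In the lowest of 5 bins of mRNA per kilobase 14.2% of genes were lower and 43.6% higher, and in the highest bin 39.3% and 23.6%. By TE in WT cells, 31.1% were lower and 33.4% higher in the lowest bin and 25.0% and 30.5% in the highest.

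Length and TE change did not run together in every list. Mitochondrial import genes had a median counted length of 593 nt, against 1210.5 nt for all genes tested, and were lowered, while cohesin, condensin and repair genes had a median of 2187 nt and leaned to higher TE. Glycolysis genes had a median of 1254 nt.

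An ATG within the 100 bases before the start codon, in any frame and on the coding strand, was present in 32.9% of lower genes, 49.2% of uncalled genes and 61.2% of higher genes, beside 49.6% of all tested genes with such a window. Of the 1978 well-counted genes with an ATG there, 21.6% were lower and 37.8% higher. Of the 2176 without, 40.1% were lower and 21.8% higher. The difference was present in each length bin. In the longest bin 29.9% of genes with an ATG were lower, against 58.9% of those without, and in the shortest bin 47.9% of genes with an ATG were higher, against 33.0% of those without. With TMM within each assay, 14.7% of genes with an ATG were lower and 47.6% higher, against 32.2% and 30.3% of those without. Transcript start sites were not used here, so how much of each 100-base window is transcribed is not known, nor whether an ATG in it is translated. By list, 17.4% of the glycolysis genes and 65.8% of the spliceosome genes had an ATG in the window, but so did 58.5% of the mitochondrial import genes.

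**Figure D5:**
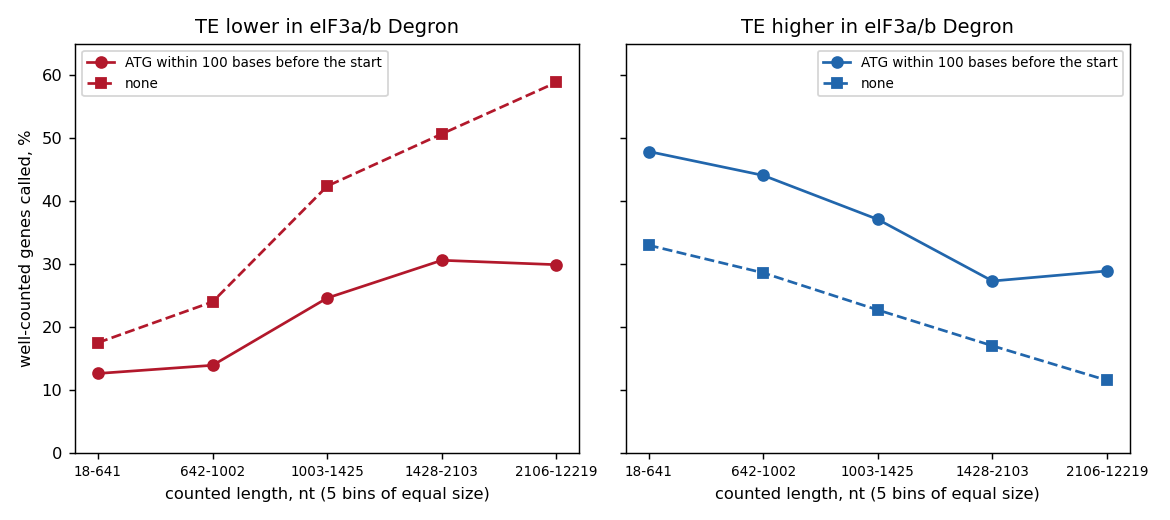
Share of well-counted genes with lower TE (left) and higher TE (right) in eIF3a/b Degron cells, in percent, by bins of the counted length in nt. Solid lines with circles are genes with an ATG within 100 bases before the start codon and dashed lines with squares genes without; the lower share is 29.9% with and 58.9% without in the longest bin.

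The base at -3 was A in 66.3% of lower genes, 63.6% of uncalled genes and 58.6% of higher genes, and T in 7.46%, 8.89% and 14.5%. Read the other way, 23.2% of the 419 genes with T at -3 were lower and 42.2% higher, against 33.0% and 27.4% of the 2616 genes with A. Genes with G resembled those with A, at 31.4% and 28.2%. Among genes without an ATG in the window, 30.1% of those with T at -3 were lower and 32.1% higher, against 41.5% and 20.4% of those with A. The A+T share of the 30 bases before the start codon had a median of 66.67% in lower, uncalled and higher genes alike. Genes with an intron were lower in 12.7% and higher in 52.1% of 213 cases, and without ribosomal proteins in 19.1% and 42.0% of 131 cases. Of the 3941 genes without an intron, 32.3% were lower and 28.2% higher. In all 213 genes the intron lies inside the counted region.

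Genes close to the minimum of 100 footprints are given as a description. Just inside it, IRC18, AAD14 and DNF2, a phospholipid flippase with a TE change of -1.86, had the largest changes. Just outside it stood PUF4, an RNA-binding protein of the Pumilio family, with a TE change of -2.23, HER1 with -1.87 and PDR10, a multidrug transporter, with 1.82. PUF4 had 105 and 94 footprints in eIF3a/b Degron cultures against 1018 and 881 in WT cultures.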

How the data were processed

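Counts of footprints and mRNA reads per gene were used as deposited by the authors, as whole numbers without normalization. Per the labels and the study's methods, footprints were made with RNase I after cycloheximide, reads were aligned to sacCer3 (tools named: CASAVA 1.8, Bowtie2 2.2.6.0, TopHat2 2.1.0), and the first 15 and last 5 codons were left out. Cycloheximide can move ribosomes near start codons, and introns lay inside the counted region. The authors' tables of their own comparisons (log2 fold changes and p-values) were not used.

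TE changes were fitted with edgeR 4.0.16 (R 4.3.3) quasi-likelihood, as the assay by strain interaction over 8 libraries with TMM factors, Benjamini-Hochberg adjusted over the 5306 genes. Changes are log2 of eIF3a/b Degron over WT. The fit was tested on simulated data in which few genes were changed, evenly in both directions. There TMM factors over both assays moved the median of unchanged genes below 0. The split of lower and higher calls is therefore also given with other scalings. In the data 33.1% of genes were called lower and 26.8% higher. The simulation thus does not show where the zero point lies here. TE per culture is footprint CPM over mRNA CPM of the libraries with the same replicate number, on the TMM-scaled totals. With 2 cultures per strain no permutation test of a single gene can pass the threshold. The labels do not say how independent the cultures were, so p-values measure the spread between these samples.

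The genes and lists were chosen with earlier results of these data known. Named genes are the 10 largest changes in each direction with the strains apart, up to 3 per list and direction, the 5 largest opposite movements, and 3 genes on each side of the footprint minimum, all past adjusted p of 0.05. Gene names, coordinates and sequences are from RefSeq R64, where 4154 of the 4161 well-counted genes matched; in 5196 of 5201 genes without introns the counted length was the coding length less 60 nt. Genes in a list that the table does not hold were not analysed here. The result of 1 named gene is not reported here. A share of 28-base windows found in another gene is given where it was 10% or more. Alternatives were DESeq2 1.42.0, other scalings, filters, thresholds, replicate blocks, a 500-footprint minimum and leaving out each culture.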

Additional observations from a re-analysis of the deposited data

How the results depend on the processing

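The count of genes with lower and higher TE depended on the scaling. With library size alone, 975 genes of all tested were lower and 2479 higher (main values 1755 and 1420), and 659 and 2180 of the well-counted genes (main values 1302 and 1227). TMM within each assay gave 1378 and 1832 of all genes, and DESeq2 1430 and 1355. A change of at least 1.5-fold left 1052 lower and 782 higher of all genes, and 661 and 624 of the well-counted ones. A minimum of 500 footprints left 459 lower and 541 higher well-counted genes. Leaving out each culture gave between 1431 and 1615 lower and between 1081 and 1287 higher genes of all tested; the strain left with 1 culture is then assumed to vary as the others do. The labels do not say that libraries with the same replicate number come from the same culture. The TE values per culture and the fits without a culture take same-numbered libraries together. The main fit treats the 8 libraries as independent. Correlations of same-numbered deviations were between -0.02 and 0.09. With the replicate block 1762 genes were lower and 1431 higher, and with a block by culture 1839 and 1514. No named gene changed direction in any of these fits. Of 298 named genes, 17 did not pass with library size alone, 4 with TMM within each assay, 7 with DESeq2, and between 9 and 18 without a culture. What lies under the footprint minimum is limited by the depth of the eIF3a/b Degron footprint libraries.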
